A study of Mus musculus with 12 samples.

Results

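The response to a high-fat diet (HFD) that several organs share was described in 4 tissues, namely white fat (WAT), brown fat (BAT), liver and quadriceps muscle, of male C57BL/6J mice. Mice were kept on a normal chow diet (NCD) or switched to the HFD at 8 wk of age, and both groups received the vehicle (veh, a cyclodextrin solution) by weekly oral gavage from 10 wk and were analysed at 17 wk. RNA-seq of NCD-veh and HFD-veh mice gave 1 library per organ and diet, so 8 of the 12 libraries of the series formed 4 organ pairs. The other 4 libraries are from HFD mice given narciclasine (HFD-ncls), an alkaloid, and their levels are set beside the vehicle levels only where named. The values are FPKM (fragments per kilobase of transcript, scaled to the mapped fragments of the library), a level per gene length, and the difference of an organ is log2 of the HFD-veh over the NCD-veh value after 0.1 FPKM was added to each. Of 22276 gene symbols, 7881 reached an FPKM of 1 in 1 or more vehicle libraries of every organ, and the members described here are the genes among them that differed in the same direction in all 4 organs.

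Each organ was measured once per diet, and the number of mice behind a library is not given in the sources used here, nor is it stated whether the organs came from the same mice or at what hour they were collected. The effect of the diet therefore cannot be told apart from a difference between the mice sampled or between the times of collection. In bulk tissue, fewer cells of a type and less RNA per cell cannot be told apart either. The libraries carried their organ's markers, with Ucp1, the uncoupling protein of brown fat, at 769.8 and 768 FPKM in NCD-veh and HFD-veh BAT and at most 2.86 FPKM in the other vehicle libraries. Lep, the adipocyte hormone leptin, was at 300.2 FPKM in NCD-veh WAT and 1199 FPKM in HFD-veh WAT. Genes enriched in one organ were also found in libraries of others, and how they came there was not tested. In HFD-veh muscle, 261 liver-enriched genes had a median of 0.675% of their level in liver, and the share was 0.00832% in NCD-veh muscle, 0.109% and 0.0227% in HFD-veh and NCD-veh WAT, and 0.0171% and 0.0188% in HFD-veh and NCD-veh BAT. The skeletal muscle enzyme Ckm was listed at 0 in NCD-veh liver and at 10.3 FPKM in the liver of HFD-veh, and at 248 and 120.1 FPKM in NCD-veh and HFD-veh BAT. The summed FPKM of 14 muscle markers in BAT was 2430 in NCD-veh and 1010 in HFD-veh. A share was estimated for liver-enriched genes only.

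Immediate-early genes encode transcription factors and feedback enzymes that cells switch on within minutes of a stimulus, without new protein synthesis, through kinase cascades that act on SRF and CREB. Clock genes form a feedback loop that runs in nearly every tissue. Arntl (BMAL1) and Clock bind E-boxes and drive the Per and Cry repressors and output genes such as Dbp, while Nr1d1 and Nr1d2 (REV-ERB) hold back the transcription of Arntl. Feeding time, which a high-fat diet is known to disturb, is among the signals that set the phase of this loop in liver.

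Fos, Anxa2 and Fads3 led the genes that were higher in HFD-veh in every organ, and Clu, Grik5 and Net1 led those that were lower. Of the 12 higher and 12 lower genes with the largest difference in their weakest organ, 17 had an FPKM of 1 or more in all 8 libraries; Fos, Fads3, Acta2, Grik5, 2610019E17Rik, Eid2b and 4831440E17Rik passed in at least 1 organ only through the diet in which they were higher, so that a difference there was built in. Immediate-early genes were found among the higher genes, whereas no clock gene had the same direction in all 4 organs. Of the 7881 genes, 561 (7.12%) were higher in HFD-veh in all 4 organs and 452 (5.74%) were lower in all 4. These shares lay among those of the other direction patterns, which ran from 302 genes (lower in WAT, higher in BAT, lower in liver and muscle) to 764 genes (lower in BAT only). A difference of at least 1.4-fold in every organ was found for 11 genes higher (0.14%) and 2 genes lower (0.0254%), against 412 and 288 genes with such a difference in at least 2 organs and 2093 and 1710 in at least 1. Across the 7881 genes, Pearson's r of the log2 differences ran from -0.09 (BAT with liver) to 0.11 (WAT with BAT). Genes are not independent replicates, and the organ pairs share no library.

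**Figure D1:**
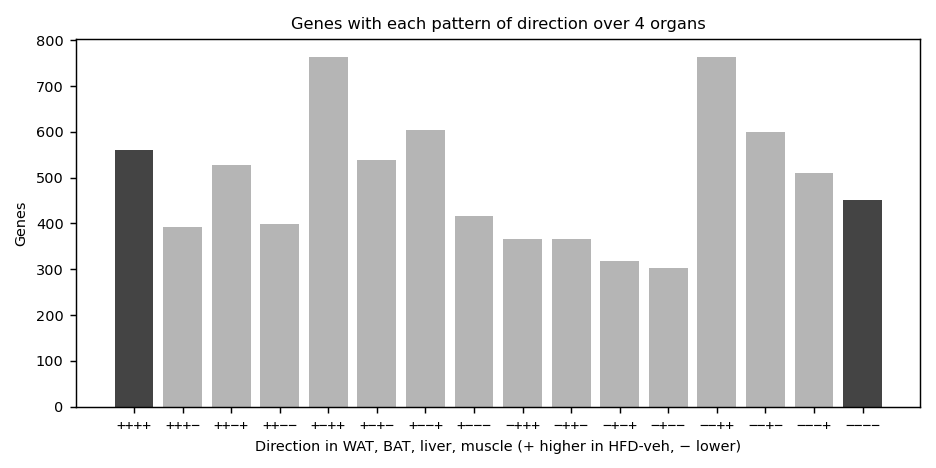
Number of genes (vertical axis) with each pattern of direction in WAT, BAT, liver and muscle, in that order, where + is higher and − lower in HFD-veh than in NCD-veh. The 561 genes higher and the 452 genes lower in all 4 organs (dark bars) were neither the most nor the least frequent of the 16 patterns.

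With the 4 organ pairs as the repeats and organ as a block, limma called 0 of 7881 genes (0%) at an adjusted p under 0.05 (Benjamini-Hochberg), and 406 genes (5.15%) at an unadjusted p under 0.05. The smallest adjusted p was 0.191, shared by Anxa2, Fads3, Serpinh1 and Clu. These p-values measure how far the difference varied between organs, not between mice. For 1 gene, an exact sign-flip test over 4 pairs cannot give a two-sided p under 0.125. All values below are thus descriptions of these libraries, and no gene passed a test over all genes.

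Fos stood first among the genes higher in every organ. It encodes the AP-1 subunit c-Fos (mm9 chr12:86814840-86818223) and was at 7.23 FPKM in NCD-veh and 14.9 in HFD-veh WAT, 1.8 and 44.2 in BAT, 0.145 and 3.04 in liver, and 1.65 and 14.8 in muscle. The log2 differences were 1.03 in WAT, 4.54 in BAT, 3.68 in liver and 3.08 in muscle, with a mean of 3.08 ± 0.50 (limma SE, 4 pairs; adjusted p = 0.389). WAT, with the highest NCD-veh level, had the smallest difference. Egr1, a zinc finger factor of the same class, was at 23.8 and 34.3 FPKM in NCD-veh and HFD-veh WAT, 5.65 and 47.8 in BAT, 1.89 and 47.5 in liver, and 1.51 and 8.93 in muscle. Its log2 differences had the same order of WAT lowest (0.52), but liver was highest (4.58), and the mean was 2.66 ± 0.55 (adjusted p = 0.586). Sik1, a kinase that holds back CREB-driven transcription and is itself induced by cAMP (chr17:31981193-31992737), differed less, from 0.53 in WAT to 1.13 in BAT on the log2 scale. Its levels were 4.22 and 6.13 FPKM in NCD-veh and HFD-veh WAT, 4.5 and 9.95 in BAT, 3.87 and 6.37 in liver, and 1.47 and 2.41 in muscle.

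The other 8 genes that were at least 1.4-fold higher in every organ were Anxa2, S100a11, Serpinh1, Acta2, Fads3, Tuba1a, Tuba1b and Tuba1c. Anxa2, a calcium-dependent membrane-binding protein (chr9:69301427-69339602), was at 516 and 1023 FPKM in NCD-veh and HFD-veh WAT, 53.4 and 98.6 in BAT, 3.17 and 7.23 in liver, and 6.88 and 13.1 in muscle. Although its levels spanned from 3.17 to 1023 FPKM, the log2 differences of the organs lay close together, from 0.88 in BAT to 1.16 in liver, with a mean of 0.99 ± 0.11. S100a11, a calcium-binding protein known to bind annexins (chr3:93324410-93330209), was at 926 and 1371 FPKM in WAT, 119 and 175 in BAT, 5.92 and 8.49 in liver, and 12 and 21.2 in muscle, in the order NCD-veh and HFD-veh. Serpinh1, the endoplasmic reticulum chaperone of collagen (chr7:106493885-106501740), was at 220.1 and 454 FPKM in WAT, 25.9 and 49.4 in BAT, 1.74 and 3.71 in liver, and 8.63 and 13.8 in muscle. Its log2 differences ran from 0.67 in muscle to 1.05 in liver (mean 0.92 ± 0.12).

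Acta2, the actin of smooth muscle and contractile stromal cells (chr19:34315580-34329826), was at 44.1 and 155 FPKM in NCD-veh and HFD-veh WAT, 13.5 and 21.1 in BAT, 0.742 and 1.83 in liver, and 4.29 and 7.22 in muscle. Fads3, a member of the fatty acid desaturase family (chr19:10116038-10134161), was at 162 and 289.6 FPKM in WAT, 2.5 and 6.26 in BAT, 1.19 and 4.54 in liver, and 0.726 and 2.29 in muscle. Fads3 was lowest in muscle and highest in WAT, and its log2 differences were larger where the level was low (1.85 in liver, 1.53 in muscle) than in WAT (0.84). Its relatives Fads1 and Fads2, the delta-5 and delta-6 desaturases, did not share one direction, with log2 differences of -0.94 and 0.12 in WAT and 0.94 and 2.09 in liver. Fads1 and Fads2 are liver-enriched, and HFD-veh muscle, where they differed by 1.92 and 3.09, had the higher level of liver-enriched genes.

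The 3 alpha-tubulin genes Tuba1a, Tuba1b and Tuba1c lie near each other on chromosome 15 (chr15:98780272-98783982, chr15:98761856-98764996 and chr15:98860322-98868536) and have near-identical coding sequences, so their reads may be shared and their values are uncertain one by one. Tuba1a was at 337 and 1044 FPKM in NCD-veh and HFD-veh WAT, 11 and 20.5 in BAT, 6.46 and 11.2 in liver, and 4.27 and 11.6 in muscle. The log2 differences of the 3 genes ran from 0.54 (Tuba1c in BAT) to 1.63 (Tuba1a in WAT). Tuba4a, an alpha-tubulin, had its highest level in muscle (335 and 283 FPKM in NCD-veh and HFD-veh). It went the other way in every organ, by -0.29 in WAT, -0.29 in BAT, -0.29 in liver and -0.24 in muscle. Tuba4a is muscle-enriched and was at 11.7 and 9.55 FPKM in NCD-veh and HFD-veh BAT. The sum of 14 muscle markers there was 2430 and 1010 FPKM, and its part in the BAT difference was not tested. Ramp2, which pairs with the calcitonin receptor-like receptor to form an adrenomedullin receptor, was 12th by its weakest organ and just under 1.4-fold there, with log2 differences of 0.69, 0.63, 0.60 and 0.48 in WAT, BAT, liver and muscle. The weakest-organ log2 difference was 0.483 for Ramp2 and 0.474 for Ier2, the next gene.

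Markers of macrophages and endothelium moved with these genes in some organs. The summed FPKM of 20 macrophage markers was 1220 in NCD-veh and 2135 in HFD-veh WAT, 90.1 and 163 in BAT, 132 and 95.8 in liver, and 56.8 and 76.4 in muscle, and only Clec4f, the Kupffer cell lectin, was listed at 0, in NCD-veh WAT, HFD-veh BAT and NCD-veh muscle. Of these markers, 9 passed the filter in all organs, and 8 of the 9 were higher in WAT, 8 in BAT, 8 in muscle and 1 in liver. The sum of 6 endothelial markers was 149.99 and 227 in WAT, 125 and 159 in BAT, 11.1 and 10.9 in liver, and 33.2 and 36.3 in muscle. In liver, both sums were lower in HFD-veh and Anxa2, S100a11, Serpinh1, Acta2 and Ramp2 were higher. Anxa2, S100a11, Serpinh1, Acta2, Fads3 and Tuba1a had their highest levels in WAT. In NCD-veh and HFD-veh muscle, Adipoq was at 11.4 and 21.1 FPKM and Lep at 0.133 and 5.04 FPKM. Of the 5 adipocyte markers that passed the filter, 4 were higher and 1 lower in HFD-veh muscle. The sum of 9 adipocyte markers was 349 and 397 FPKM in muscle and 14.8 and 38.1 in liver. It was 28710 and 20222 in WAT and 11327 and 10297 in BAT. The part of these cell types, adipocytes included, in the differences was not tested in any organ.

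**Figure D2:**
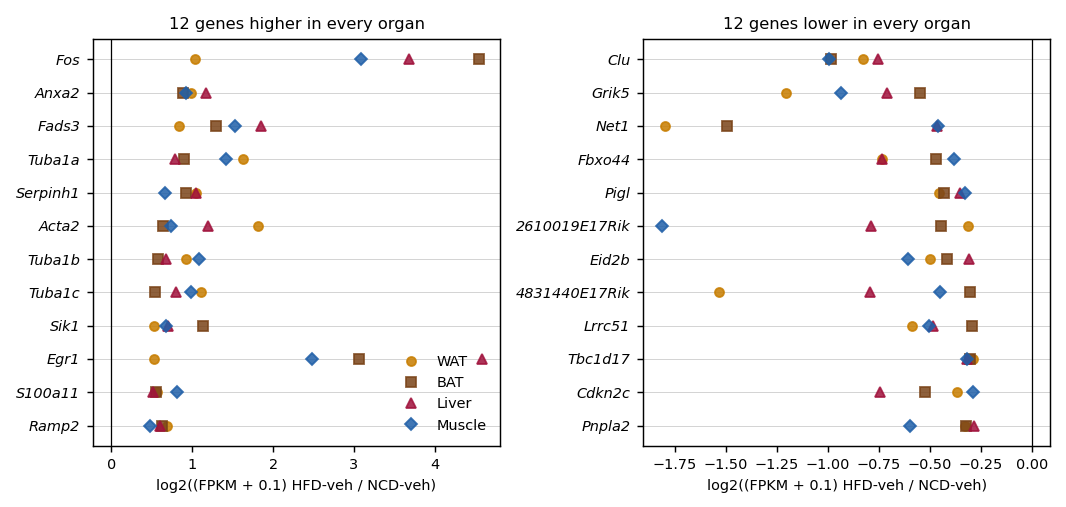
Log2 difference between HFD-veh and NCD-veh (horizontal axis, log2 of FPKM + 0.1) in WAT, BAT, liver and muscle for the 12 higher and 12 lower genes with the largest difference in their weakest organ; 1 point is 1 pair of libraries, with no error bar. Fos and Egr1 spread over more than 3 log2 units between organs, while Anxa2, S100a11, Clu and Tbc1d17 had nearly the same difference in each.

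Differences of the genes lower in every organ were smaller. Clu, the secreted chaperone clusterin or apolipoprotein J (chr14:66587320-66600385), was at 110.0 and 61.9 FPKM in NCD-veh and HFD-veh WAT, 8.04 and 4.02 in BAT, 1492 and 884 in liver, and 75.2 and 37.6 in muscle. Its log2 differences were -0.83, -0.98, -0.76 and -0.996 (mean -0.89 ± 0.11, limma SE; adjusted p = 0.191). Clu is liver-enriched, and it was lower in HFD-veh muscle, the library with the larger share of liver-enriched transcripts. Grik5, a kainate receptor subunit (chr7:25794872-25857388), was the other gene at least 1.4-fold lower in every organ, at 2.55 and 1.05 FPKM in WAT, 12.1 and 8.24 in BAT, 3.9 and 2.35 in liver, and 1.03 and 0.492 in muscle. Net1, an exchange factor for RhoA (chr13:3881811-3917466), differed most in the adipose tissues, from 63.8 to 18.3 FPKM in WAT and from 19.7 to 6.92 in BAT, against 22 and 15.9 in liver and 14.5 and 10.5 in muscle.

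Of the remaining 9 lower genes, 2 act directly on metabolism or growth in ways that are well known. Pnpla2 encodes adipose triglyceride lipase (ATGL), which takes the first fatty acid from stored triglyceride (chr7:148641097-148646642). It was at 851 and 678 FPKM in NCD-veh and HFD-veh WAT, 1101 and 879 in BAT, 40.6 and 33.4 in liver, and 110.1 and 72.7 in muscle, with log2 differences of -0.33, -0.32, -0.28 and -0.60. Pnpla2 was the 12th of these genes, with a weakest-organ log2 difference of 0.282 in size, and Tacc2 followed at 0.281. Cdkn2c, the cyclin-dependent kinase inhibitor p18 (chr4:109333481-109339794), was at 78.5 and 60.8 FPKM in WAT, 23 and 16 in BAT, 2.03 and 1.18 in liver, and 4.24 and 3.46 in muscle. Tbc1d17, a Rab GTPase-activating protein, had the most even difference, from -0.29 in WAT to -0.32 in muscle. Fbxo44 (an F-box protein), Pigl (an enzyme of GPI anchor synthesis), Eid2b, Lrrc51, 2610019E17Rik and the long non-coding RNA 4831440E17Rik were low throughout, at most 12.4 FPKM (Lrrc51 in NCD-veh BAT). Among these 6, the weakest-organ log2 difference ran from -0.29 (Lrrc51) to -0.38 (Fbxo44), and the largest single difference was that of 2610019E17Rik in muscle (-1.81).

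Of 40 immediate-early genes, 25 passed the filter, and 9 were higher in HFD-veh in all 4 organs and 0 lower in all 4, against 7.12% and 5.74% of all genes tested. The filter kept 4 of the 25 (Fos, Nr4a1, Socs3 and Ctgf) although an NCD-veh library lay under 1 FPKM. With an FPKM of at least 1 in all 8 libraries, 7 of 20 were higher in all 4, against 7.01% of all genes that met this stricter filter. The median log2 difference of the 25 was 0.24 in WAT, 0.90 in BAT, 0.19 in liver and 0.53 in muscle, beside 0.03, -0.06, 0.05 and 0.03 for all genes tested. The 9 comprise the transcription factors Fos, Junb, Egr1 and Nr4a1, the phosphatases Dusp1 and Dusp6 that switch off MAP kinases, the kinase Sik1, the antiproliferative factor Btg2 and Ier2.

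Dusp1 was at 26.5 and 36.8 FPKM in NCD-veh and HFD-veh WAT, 10.2 and 39.1 in BAT, 16.9 and 22.1 in liver, and 19.1 and 45.2 in muscle, and its mean log2 difference was 1.005 ± 0.26 (limma SE, adjusted p = 0.812). Junb was at 17.6 and 22.7 FPKM in WAT, 8.59 and 29.7 in BAT, 11.1 and 16 in liver, and 3.26 and 5.65 in muscle. Both differed most in BAT. Btg2 was at 13.7 and 17.4 FPKM in WAT, 11 and 23.9 in BAT, 3.43 and 6.36 in liver, and 3.23 and 5.44 in muscle. Ier2, whose product is a nuclear protein, was at 8.04 and 11.2 FPKM in WAT, 7.29 and 22.6 in BAT, 10.4 and 19.4 in liver, and 1.73 and 3.08 in muscle. For Btg2 and Ier2 too, BAT had the largest log2 difference (1.11 and 1.62) and WAT the smallest (0.34 and 0.47). Dusp6 differed from 0.24 in WAT to 1.14 in BAT. The orphan nuclear receptor Nr4a1, highest in muscle (36.1 and 62.4 FPKM), differed by 0.25 in BAT and by 1.73 in liver, where it was at 0.292 and 1.2 FPKM.

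In HFD-ncls mice, Fos was at 26.3 FPKM in WAT, 29.4 in BAT, 2.84 in liver and 6.73 in muscle, each above the NCD-veh level of the organ. Egr1 was at 35.1, 34.5, 66.6 and 5.44 FPKM and Dusp1 at 69, 22.7, 19.9 and 26.5 FPKM in the same order. Nr4a1 was at 18.8 FPKM in BAT of HFD-ncls mice, below its level of 22.0 FPKM in NCD-veh BAT. These levels stand beside the same NCD-veh libraries, so they do not repeat the NCD-veh side of the comparison.

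**Figure D3:**
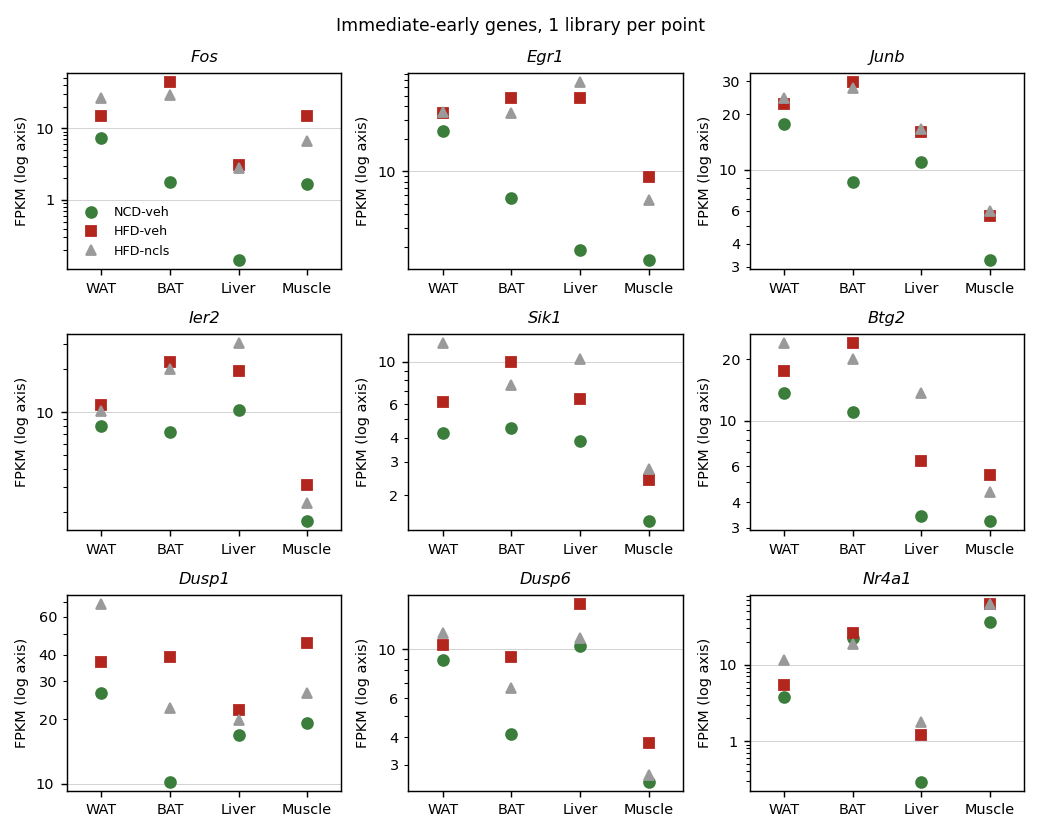
FPKM (vertical log axis) of the 9 immediate-early genes higher in HFD-veh in all 4 organs, in NCD-veh (circles), HFD-veh (squares) and HFD-ncls (triangles) libraries of each organ; 1 point is 1 library, with no error bar. Each square lies above the circle of its organ, and the distance is widest for Egr1 in liver (1.89 and 47.5 FPKM) and Fos in BAT (1.8 and 44.2 FPKM).

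The remaining 16 immediate-early genes that passed had mixed directions. Jun, the partner of Fos in AP-1, was at 24.4 and 18.2 FPKM in NCD-veh and HFD-veh WAT, 15.2 and 27.3 in BAT, 3.18 and 15 in liver, and 27 and 25 in muscle, so it was higher in BAT and liver and lower in WAT and muscle. Zfp36, which speeds the decay of cytokine mRNAs, missed only by WAT (-0.027), with 1.14 in BAT, 0.60 in liver and 0.96 in muscle. Socs3, an inhibitor of cytokine receptor signalling, was higher in BAT (2.40) and muscle (1.52) and lower in WAT (-0.23) and liver (-0.53). Jund, Klf2, Klf6 and Plk2 had at least 1 organ on each side, as did Cyr61 (lower in liver, -0.32), Ctgf (lower in muscle, -0.66), Klf10 (-0.15 in WAT and -0.62 in muscle) and Myc (-0.053 in WAT and -0.15 in BAT). Fosl2 was lower in BAT and liver (-0.65 and -0.47), as was Rhob (-0.50 and -0.30). Gadd45b (-1.04 in BAT, -1.44 in liver) and Gadd45g (-1.13 in BAT), growth arrest factors, and the NF-kB inhibitor Nfkbia (-0.13 in WAT, 0.43 in muscle) were lower in 3 organs.

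Several immediate-early genes did not pass because they were low in liver. Fosb was at 1.07 and 1.22 FPKM in NCD-veh and HFD-veh WAT, 0.422 and 29.8 in BAT, 0.0109 and 0.0685 in liver, and 0.103 and 2.25 in muscle. Atf3, a stress-induced factor, was at 2.62 and 12.5 FPKM in WAT, 1.25 and 4.4 in BAT, 0.154 and 0.644 in liver, and 0.664 and 3.83 in muscle. Both were higher in HFD-veh in each organ, and Egr2 was as well, at 0.19 and 1.29 FPKM in BAT and 0.0283 and 0.0443 in liver. Without any filter, 13 of the 40 genes were higher in all 4 organs, against 5% of all 22192 symbols with a value in the 8 libraries.

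Promoters of the immediate-early genes were searched for the cAMP response element TGACGTCA, the site of CREB, and for the CArG box, the site of SRF, in the 250 bases before the RefSeq start (both strands; GRCm38.p6). Of the 25 genes, 19 had an entry, and the CRE was found in 3 of them (Btg2, Dusp1 and Plk2), against 1.77% of the 27025 genes with a promoter entry. The CArG box was found in 1 (Zfp36), against 1.62% of all. No entry was held for Egr1, Klf10, Ier2, Ctgf, Myc and Sik1. The 2 stretches below are shown because they belong to members that were higher in every organ; they are given 5′ to 3′ on the minus strand, which is the strand of both genes, with the CRE in capitals.
Dusp1 (chr17:26508573-26508652): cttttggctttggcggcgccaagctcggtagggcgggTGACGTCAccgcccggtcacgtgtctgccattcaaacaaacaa
Btg2 (chr1:134079276-134079355): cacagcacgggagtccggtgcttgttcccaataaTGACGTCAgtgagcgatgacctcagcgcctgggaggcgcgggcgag
The CRE ends 135 bases before the start of Dusp1 and 158 bases before that of Btg2. Plk2, with the same element, was lower in liver (-0.60) and higher in the other organs.

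Clock genes did not share a direction. Of 30 listed, 25 passed the filter, and 0 were higher in all 4 organs and 0 lower in all 4, against 7.12% and 5.74% of all genes tested. Repressors and outputs of the loop were often higher in HFD-veh liver and muscle and lower in WAT and BAT. Per1, Per2, Per3, Gm129 (also named Ciart, a repressor of the loop), Dbp, Tef, Hlf, Bhlhe40 and Por had this pattern, 9 genes, which was seen in 9.68% of all genes tested. Arntl and Clock, the activators, had the reverse pattern, which was seen in 5.06%. These patterns were picked out after the values were seen.

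Dbp, a PAR-bZIP factor and one of the strongest rhythmic outputs, was at 45.7 and 18.6 FPKM in NCD-veh and HFD-veh WAT, 14.2 and 11.3 in BAT, 3.87 and 54.8 in liver, and 19.4 and 55.2 in muscle. The log2 differences were -1.29, -0.33, 3.79 and 1.50, so the mean of 0.92 ± 0.73 (limma SE) describes no organ. Arntl was at 2.54 and 3.23 FPKM in WAT, 1.27 and 1.49 in BAT, 5.61 and 0.457 in liver, and 6.45 and 3.85 in muscle. Its difference in liver (-3.36) was the lowest of the clock genes and that of Dbp the highest. Per2 was at 3.88 and 3.09 FPKM in WAT, 3.82 and 3.22 in BAT, 1.15 and 5.89 in liver, and 0.986 and 2.88 in muscle. In liver, the log2 differences of Per2, Per3 and Gm129 were close (2.26, 2.54 and 2.25), whereas in muscle Per2 (1.46) differed more than Per1 (0.87), Gm129 (0.64) or Per3 (0.44). Clock was at 3.93 and 2.44 FPKM in liver and 12.1 and 16.1 FPKM in WAT.

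Of the cryptochromes, Cry1 differed by -0.38 in liver and 0.43 in WAT and Cry2 by 0.37 and -0.13. In the stabilising loop, Nr1d1 was lower in WAT (-1.06), liver (-0.26) and muscle (-0.50) and higher in BAT (0.53), and Nr1d2 was lower in WAT (-0.81) and higher in liver (1.35). Rora, a nuclear receptor that activates Arntl, differed by -0.72 in BAT and 0.11 in WAT. Nfil3, which competes with Dbp for the D-box, was opposite to Dbp in WAT (1.63) and liver (-1.61) but shared its direction in BAT (-0.69) and muscle (0.34). The outputs Usp2 and Wee1 were higher in liver (1.90 and 2.94), muscle (0.71 and 0.59) and WAT (0.32 and 0.27) and lower in BAT (-1.10 and -0.66). The kinases and ligase subunit Csnk1d, Csnk1e and Btrc stayed within -0.59 (Btrc in WAT) and 0.25 (Csnk1e in liver), and Tspan4, listed among the outputs, was lower in WAT only (-0.27).

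Subtracting the estimated liver share from the WAT, BAT and muscle libraries left 0 clock genes higher and 0 lower in all 4 organs and the same count of 9 immediate-early genes higher. Over all genes, 536 of the 561 higher genes and all 452 lower genes kept their direction in this way. The largest share taken off was 0.675%, from HFD-veh muscle. Fos, Egr1 and Dbp were at 3.04, 47.5 and 54.8 FPKM in HFD-veh liver and at 14.8, 8.93 and 55.2 FPKM in HFD-veh muscle. So small a share could hardly turn the direction of such genes, and no conclusion is drawn from the unchanged counts of the 2 lists. Muscle and adipocyte transcripts found in other organs were not subtracted.

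**Figure D4:**
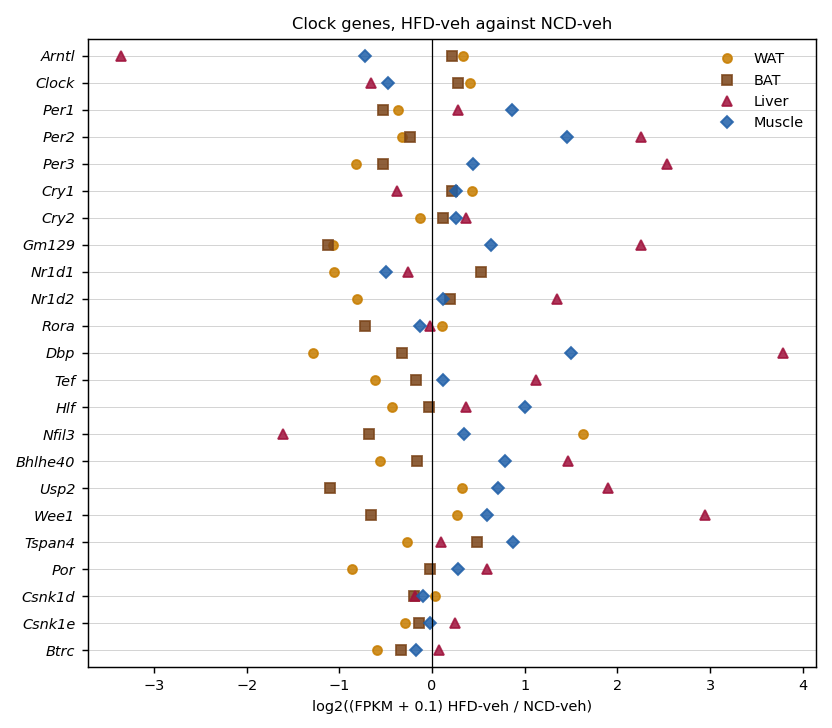
Log2 difference between HFD-veh and NCD-veh (horizontal axis, log2 of FPKM + 0.1) of 23 clock genes that passed the filter in WAT, BAT, liver and muscle; 1 point is 1 pair of libraries, with no error bar. Liver (triangles) spans from -3.36 for Arntl to 3.79 for Dbp, and WAT (circles) lies mostly on the other side of 0 from liver.

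E-boxes (CACGTG) were found in the 250 bases before the start of 5 of the 18 clock genes with a promoter entry (Ciart, Cry1, Per1, Tef and Tspan4), against 6.86% of all genes with an entry and 4 of the 19 immediate-early genes with one (Dusp1, Gadd45b, Gadd45g and Klf6). D-boxes (TTATGTAA or TTACGTAA, both strands) were found in 1 (Per3), against 1.10%. Per2, Bhlhe40, Wee1, Csnk1d and Btrc were among the genes without an entry. The 3 stretches below are those of genes with the pattern of higher in liver and muscle and lower in WAT and BAT, given 5′ to 3′ on the strand of the gene, with the E-boxes of Ciart and Per1 and the D-boxes of Per3 in capitals.
Ciart (chr3:95882253-95882358, minus strand): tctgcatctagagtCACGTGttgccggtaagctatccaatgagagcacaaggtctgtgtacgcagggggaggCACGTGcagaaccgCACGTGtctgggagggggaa
Per1 (chr11:69098749-69098828, plus strand): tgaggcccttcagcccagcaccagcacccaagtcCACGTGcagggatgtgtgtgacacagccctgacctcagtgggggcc
Per3 (chr4:151044800-151044885, minus strand): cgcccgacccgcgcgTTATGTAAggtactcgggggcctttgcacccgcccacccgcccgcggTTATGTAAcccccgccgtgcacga
Ciart holds 3 E-boxes in this window, Per1 holds 1, and Per3 holds 2 D-boxes. Cry1, which holds an E-box too, did not have the pattern of the Per genes.

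Beyond these lists, groups that shared a direction in every organ were small. Of 20 collagen and matrix genes, 13 passed and 5 were higher in all 4 organs and 0 lower, against 7.12% and 5.74% of all genes tested. Sparc, a collagen-binding matricellular protein, was at 1447 and 2177 FPKM in NCD-veh and HFD-veh WAT, 214 and 311 in BAT, 12.9 and 17.2 in liver, and 44.8 and 70.6 in muscle. Postn (periostin) differed by 1.93 in WAT and 0.18 in BAT, and Col4a2, a basement membrane collagen, by 0.98 in WAT and 0.16 in liver. Postn was at 0.707 and 1.44 FPKM in NCD-veh and HFD-veh liver and at 0.787 and 1.2 FPKM in muscle. It passed in liver and muscle only through HFD-veh, so that a higher value there was built in. The median of the list was 0.70 in WAT but -0.04 in liver, so the 5 genes did not stand for the list.

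Of 29 PPAR target genes, 22 passed and 4 of them (18.2%) were higher in all 4 organs and 0 lower, beside 7.12% and 5.74% of all genes tested. Cpt1a, which admits long-chain fatty acids to mitochondrial oxidation, was at 28.2 and 42.1 FPKM in WAT, 2.02 and 4.08 in BAT, 83.4 and 112 in liver, and 1.49 and 2.27 in muscle. Acaa2, the mitochondrial thiolase, differed by 0.49 in BAT and 0.079 in muscle. Acaa1b, a peroxisomal thiolase enriched in liver, differed by 1.96 in HFD-veh muscle, the library with more liver-enriched transcripts, and by 0.10 in BAT. Cpt1a is liver-enriched too. Acaa2 was at 399 and 510 FPKM in NCD-veh and HFD-veh liver and at 47.2 and 49.8 FPKM in muscle. The part of liver transcripts in the muscle differences of these genes was not tested. Of 18 proliferation genes, only 4 passed, too few for a share to be read against the 7.12%, and 3 were higher in all 4 organs: Ccnd1 (cyclin D1; 1.01, 1.47, 0.39 and 0.97 in WAT, BAT, liver and muscle), Ccnd2 and Pcna. Cyclin D1 and D2 admit cells to the cycle, and Pcna is the sliding clamp of DNA replication. Ccnd1 passed the filter in BAT and muscle, and Ccnd2 in liver and muscle, only through HFD-veh. Their NCD-veh levels there were 0.556 and 0.594 FPKM and 0.863 and 0.998 FPKM, so that a higher value was built in.

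Stress groups had few shared members, and their shares stand beside 7.12% higher and 5.74% lower of all genes tested. Of 22 heat shock genes, 3 (13.6%) were higher in all 4 organs and 0 lower (Hsp90aa1, Hspa4 and Chordc1, with log2 differences from 0.0044 to 0.72), and of 30 genes of the ER stress and integrated stress responses, 22 passed and 2 (9.09%) were higher (Hsp90b1 and Dnajc3) and 0 lower. Hspa4 and Chordc1 differed by 0.011 and 0.0044 in muscle, and the part of liver transcripts in these small differences was not tested. The cold-inducible RNA-binding protein Cirbp was lower in all 4 organs, at 17.8 and 11.3 FPKM in WAT, 18 and 10.8 in BAT, 13.5 and 7.95 in liver, and 12.4 and 11 in muscle. Its relative Rbm3 was lower in 3 organs and higher in WAT (0.29). Of 25 glucocorticoid-responsive genes, 22 passed and 2 (9.09%) were lower in all 4 organs and 0 higher: Zbtb16, a transcription factor, and Irs2, an insulin receptor substrate. Irs2 was at 16.2 and 11.5 FPKM in WAT, 2.47 and 1.42 in BAT, 2.9 and 2.09 in liver, and 2.83 and 2.53 in muscle, and it was also the only one of the 14 insulin signalling genes that passed to share a direction.

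Of 46 respiratory chain genes, 1 (2.17%) was higher in all 4 organs (Sdhc) and 0 lower, and of 31 proteasome genes, 2 (6.45%) were higher (Psmd6 and Psmd8) and 0 lower, against 7.12% and 5.74% of all genes tested. Of 45 ribosomal protein genes, 43 passed and 4 (9.30%) were lower and 0 higher; Rps19, Rpl23 and Rps14 differed by between -0.019 and -0.29, and reads of these genes can also match their processed pseudogenes. The other lists gave 1 gene of 33 interferon genes lower (Irf9; 15 passed), 1 of 7 MHC class II genes higher (H2-Ab1; 5 passed), 1 of 20 macrophage genes higher (Cd63), 1 of 24 cholesterol synthesis genes higher (Dhcr7; 16 passed), 1 of 6 endothelial genes higher (Pecam1; 4 passed) and 0 in either direction of 18 fatty acid synthesis genes (16 passed). Of the liver markers, Apoa2 was higher in all 4 organs, at 15429.8 and 16203 FPKM in liver and 0.348 and 117 FPKM in muscle, the library pair with the largest difference in liver-enriched transcripts. Apoa2 passed in WAT (0.69 FPKM in NCD-veh) and muscle only through HFD-veh, so that a higher value there was built in. The lists of muscle, adipocyte, brown fat, lymphocyte and erythroid markers gave 0 genes in either direction, and no lymphocyte marker passed the filter.

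**Figure D5:**
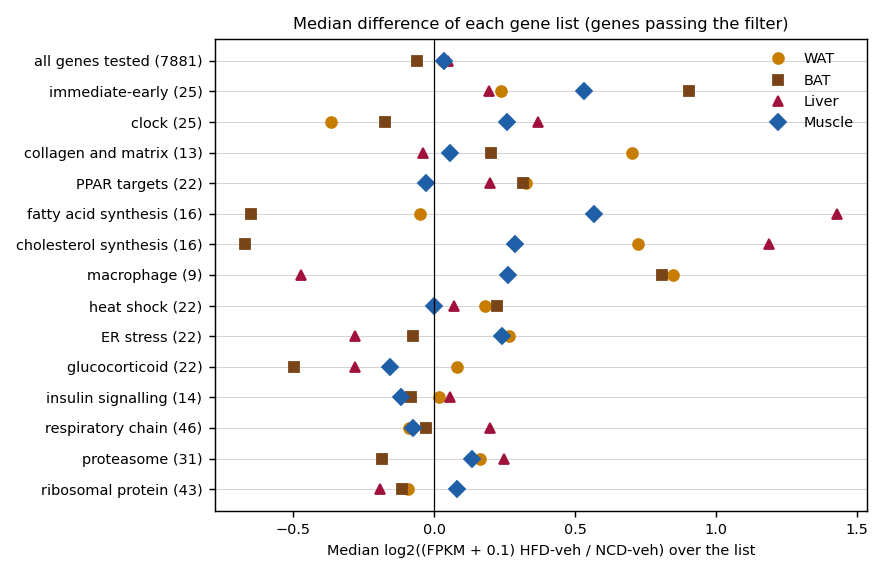
Median log2 difference between HFD-veh and NCD-veh (horizontal axis, log2 of FPKM + 0.1) in each organ over the genes of each list that passed the filter (number in parentheses), with no error bar. The immediate-early list lies right of 0 in every organ, from 0.19 in liver to 0.90 in BAT, while the clock, fatty acid synthesis and cholesterol synthesis lists lie on both sides of 0.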

How the data were processed

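RNA-seq libraries of 4 organs were analysed, 1 for each organ and group. Reads were aligned to mm9 with TopHat by the authors, who estimated RefSeq gene levels in Cufflinks and deposited them as FPKM, 1 value for each symbol in a library. Columns were mapped to samples by the sample titles. FPKM scales each library to its own total, so a few abundant genes can shift the others. The table has no counts, the depth of each library is not given in it, and no interval for counting error could be set. Among values up to 0.05 FPKM, the commonest ratio of the smallest step in NCD-veh over HFD-veh was 0.972 in WAT, 0.957 in BAT, 0.958 in liver and 1.05 in muscle. Strandedness of the libraries is not given in the sources used here, so overlapping genes on opposite strands cannot be told apart.

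Genes lacking a value in 1 of the 8 vehicle libraries (84 symbols) were left out. Differences were taken on log2(FPKM + 0.1), which understates changes of low genes, for symbols that reached an FPKM of 1 in 1 or more vehicle libraries of every organ. The diet effect was fitted with limma 3.58.1 in R 4.3.3 (eBayes with trend, organ as block, 3 residual degrees of freedom per gene, Benjamini-Hochberg over 7881 genes), which was tested on simulated data first. The 1.4-fold threshold is one used by the study. Named genes were the 12 higher and 12 lower in all organs with the largest difference in their weakest organ, all clock and immediate-early genes that passed, and up to 3 genes of each other list that shared a direction; immediate-early genes that failed the filter, gene relatives, organ markers and Rbm3 were added after the values were seen. Members and the 25 lists were chosen with earlier results of these data known. Of the clock genes, 2 are counted but not reported here by name. Of the listed symbols, 5 are absent from the table used here. Gene positions are from GENCODE M1 (mm9) and promoters from RefSeq (GRCm38.p6), and the 2 builds were not mixed. Liver-enriched genes were those with a mean liver FPKM of 10 or more that was 20 or more times their median elsewhere, and the ones at 100 FPKM or more gave the share of liver RNA. Muscle-enriched genes were defined in the same way from the muscle libraries. Alternatives covered the pseudocount (0.01 and 1), the filter (FPKM of at least 5, none, or 1 in all 8 libraries), centring, removal of organ-enriched genes, each organ left out, and the limma settings; subtraction of the liver share was added after seeing the data. Computations used Python 3.11.15, numpy 2.4.6, pandas 2.3.3 and matplotlib 3.10.9.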

Additional observations from a re-analysis of the deposited data

Results flagged for a closer look

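Gene lists of which at least 5 members passed the filter are given here where at least 80% of the members were higher in HFD-veh in one organ and at least 80% lower in another. With 1 pair of libraries per organ these differences between organs were not tested. Of all genes tested, 53.3% were higher in WAT, 41.0% in BAT, 55.2% in liver and 56.0% in muscle, and 59.0% were lower in BAT and 44.8% in liver.

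Fatty acid synthesis genes were higher in liver (15 of 16) and lower in BAT (14 of 16), and the medians differed by 2.08 on the log2 scale (liver minus BAT). Cholesterol synthesis genes were lower in BAT (15 of 16) and higher in liver (16 of 16), WAT (15) and muscle (13), with medians 1.86, 1.39 and 0.96 above that of BAT. Proteasome genes were lower in BAT (29 of 31) and higher in liver (26) and muscle (29), with medians 0.43 and 0.32 above that of BAT. Macrophage markers were lower in liver (8 of 9) and higher in WAT, BAT and muscle (8 of 9 each), with medians 1.32, 1.28 and 0.74 above that of liver.

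Muscle markers were lower in BAT (6 of 6) and higher in liver (6 of 6) and WAT (5), with medians 4.90 and 1.60 above that of BAT. Adipocyte markers were higher in liver (5 of 5) and muscle (4) and lower in WAT (4) and BAT (4). Their medians in liver stood 1.62 above WAT and 1.86 above BAT, and in muscle 0.53 above WAT and 0.77 above BAT. The summed level in liver was 14.8 FPKM in NCD-veh and 38.1 FPKM in HFD-veh for 9 adipocyte markers, of which Adipoq, Lep and Retn were listed at 0 in both. For 14 muscle markers it was 2.55 and 78.9 FPKM, with 7 listed at 0 in NCD-veh and 0 in HFD-veh. The source of these transcripts was not tested.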

How the results depend on the processing

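The number of genes called by limma was 0 at an adjusted p under 0.05 under every alternative run, with a smallest adjusted p of 0.0692 (FPKM of at least 5) and 4 (without the organ as block) to 947 (no filter) genes at an unadjusted p under 0.05. Each of the 24 leading genes kept its direction in every organ under each alternative in which it was present. The pseudocount, the filters, removal of organ-enriched genes and leaving out an organ cannot change a direction. The largest shift by centring was in BAT, where the median was -0.0619, and the smallest weakest-organ difference of the 24 was 0.282 in size. The kept directions are therefore no measure of robustness. With an FPKM of at least 5, 11 of the 24 were present, and 230 genes were higher and 152 lower in all 4 organs, with 6 and 1 past 1.4-fold. Without a filter, 1110 were higher and 903 lower, with 29 and 17 past 1.4-fold. Genes at least 1.4-fold lower in every organ were 1 with a pseudocount of 1, with an FPKM of at least 1 in all 8 libraries, and without organ-enriched genes (which removes Clu). With the median of each organ set to 0, 529 genes were higher and 518 lower, of which 442 and 375 were among the 561 and 452. Leaving out 1 organ, which asks for agreement of fewer organs, gave 929 to 1360 genes higher, 773 to 1131 lower, 24 to 45 past 1.4-fold higher and 4 to 20 lower, and 0 called by limma. The highest count higher came without BAT and the highest count lower without liver. With 1 organ left out, 9 to 13 immediate-early genes were higher in the remaining organs, and 0 to 3 clock genes higher and 0 to 3 lower. Subtracting the liver share gave 536 higher and 490 lower. Without a filter, 1 clock gene was lower in all 4 organs. No paired analysis by replicate was possible because each organ and diet has 1 library; organ served as the block. Depth is not known from the table, so low genes such as Fos in NCD-veh liver carry a counting error that could not be given.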

Other observations

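Relatives of the leading genes were looked up after their values were seen. Of the annexins, Anxa1, which resolves inflammation, was higher in all 4 organs, by 0.47 in WAT, 1.28 in BAT, 0.81 in liver and 1.10 in muscle on the log2 scale, as were Anxa5 (0.48, 0.53, 0.36 and 0.56) and Anxa4 (0.29, 0.20, 0.28 and 0.11). Anxa3, Anxa6, Anxa7 and Anxa11 had mixed directions. Actn1, a cytoskeletal alpha-actinin, was higher by 1.17 in WAT, 0.79 in BAT, 0.39 in liver and 0.57 in muscle, whereas Actb, Actg1 and Actn4 had mixed directions. Anxa1 in liver (0.853 FPKM in NCD-veh) and Actn1 in muscle (0.952 FPKM) passed only through HFD-veh, so that a higher value there was built in. Beta-tubulins were higher in WAT and BAT, from 0.19 (Tubb6 in BAT) to 1.31 (Tubb2a in WAT), while Tubb2a, Tubb2b, Tubb4b and Tubb5 were lower in liver, by -0.96, -1.03, -0.11 and -0.57. Of the S100 genes that passed, only S100a11 shared a direction in all 4 organs. S100a6 was higher in WAT, BAT and muscle (0.25, 1.20 and 0.66) and lower in liver (-0.93).

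Lep could not enter the lists because it was listed at 0 in liver; it was at 0.597 FPKM in NCD-veh and 3.68 FPKM in HFD-veh BAT, and at 0.133 and 5.04 FPKM in muscle.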
